A study of Mus musculus with 5 samples.

Results

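Chromatin accessibility (ChrAcc) was described at 9 genes of the B cell lineage, Pax5, Ebf1, Pou2af1, Cd79a, Cd79b, Cd22, Ms4a1, Blk and Blnk, in naïve CD8+ T cells. The members were all deposited DNase-seq peaks, from WT and from Tcf1/Lef1-deficient (dKO) cells, whose summit lay within the body of one of these genes or within 50 kb on either side. They numbered 55 of 56641 deposited peaks, 31 from the WT list and 24 from the dKO list. The study asked whether the transcription factors Tcf1 and Lef1 keep mature CD8+ T cells in the T lineage, and DNase-seq was its measure of open chromatin, since DNase I cuts accessible DNA more readily than packed DNA. Both groups came from mice with the hCD2-Cre transgene, whose Cre recombinase works best in peripheral T cells that have matured, and with a Rosa26 allele that turns on GFP where Cre has acted. WT mice carried intact Tcf7 (the gene for Tcf1) and Lef1, and dKO mice carried floxed alleles of both genes, all as young adults of both sexes. GFP+ TCRβ+ CD62Lhi CD44lo-med CD8+ cells were sorted from the spleen, so both groups had been exposed to Cre. The 3 WT and the 2 dKO replicates had each been pooled before peaks were called, leaving 1 list per genotype. From these lists no spread between replicates can therefore be given and no test between genotypes was possible. Each difference described here is one between these 2 pools. The study itself compared read counts of the replicates between genotypes. It names lower accessibility in dKO at the Pou2af1 promoter and in a Pax5 intron, and higher accessibility in a Blk intron. By its RNA-seq, it counts Pax5 and Blk among the genes raised in dKO and Pou2af1 among those lowered. It proposes that sites like the one in Pax5 may act as silencers. Cd79a and Cd79b are also among the B cell genes it reports as enriched in dKO. Expression was not analysed here.

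Pax5 and Ebf1 are transcription factors that set up and hold the B cell program. Cd79a and Cd79b are the signalling chains of the B cell receptor, the surface complex through which B cells sense antigen. Behind the receptor, the kinase Blk and the adaptor Blnk pass the signal on, Cd22 restrains it, and the coactivator Pou2af1 works with Oct factors on octamer motifs of B cell genes. Conventional T cells largely keep these genes silent, although the study counts Pou2af1 among the genes that Tcf1 and Lef1 activate in CD8+ T cells. T cells signal through the T cell receptor with their own kinases and adaptors.

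The DNA under sites inside or at the promoter of a listed gene that were in 1 list only or moved by at least 20 percentile points, and that ranked at percentile 25 or above in a list, and under the single Tcf/Lef core match at these loci, is printed here because later results turn on it. Each run is from the mm9 genome and reads 5′ to 3′ on the strand of the named gene. It holds the 201 bases around the summit, except at Pou2af1, where it ends 1 base before the transcription start site (TSS). Capitals mark exact matches on either strand to the letters searched, which were ATCAAAG for the Tcf/Lef core, GGAAG for Ets factors, TGTGGT for Runx factors, CAGCTG for an E-box, ATGCAAAT for the octamer and CCCNNGGG for Ebf factors.
Pou2af1 promoter, WT only, chr9:51021653-51021794 (+ strand): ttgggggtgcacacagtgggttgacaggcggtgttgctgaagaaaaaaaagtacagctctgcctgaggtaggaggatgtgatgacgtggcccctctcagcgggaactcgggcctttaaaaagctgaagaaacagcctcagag
Pax5 intron 5, WT only, chr4:44687948-44688148 (- strand): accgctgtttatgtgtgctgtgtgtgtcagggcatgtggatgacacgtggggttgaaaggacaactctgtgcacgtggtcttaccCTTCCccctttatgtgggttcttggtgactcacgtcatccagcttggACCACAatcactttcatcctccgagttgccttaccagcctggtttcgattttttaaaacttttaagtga
Pax5 intron 5, dKO only, chr4:44685458-44685658 (- strand): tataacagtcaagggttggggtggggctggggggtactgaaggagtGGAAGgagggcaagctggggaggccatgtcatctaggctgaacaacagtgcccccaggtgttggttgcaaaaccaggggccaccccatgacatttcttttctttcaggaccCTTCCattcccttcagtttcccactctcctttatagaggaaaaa
Ebf1 intron 10, WT only, chr11:44738550-44738750 (+ strand): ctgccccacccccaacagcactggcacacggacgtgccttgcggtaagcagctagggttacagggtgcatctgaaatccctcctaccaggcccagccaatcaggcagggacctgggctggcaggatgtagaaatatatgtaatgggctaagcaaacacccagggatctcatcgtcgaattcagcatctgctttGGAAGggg
Ebf1 31.1 kb upstream, shared, chr11:44399632-44399832 (+ strand): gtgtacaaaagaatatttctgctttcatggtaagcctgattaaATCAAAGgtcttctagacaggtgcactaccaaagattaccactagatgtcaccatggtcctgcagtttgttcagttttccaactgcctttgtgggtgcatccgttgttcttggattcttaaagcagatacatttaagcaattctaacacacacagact
Blk intron 10, shared, chr14:63996234-63996434 (- strand): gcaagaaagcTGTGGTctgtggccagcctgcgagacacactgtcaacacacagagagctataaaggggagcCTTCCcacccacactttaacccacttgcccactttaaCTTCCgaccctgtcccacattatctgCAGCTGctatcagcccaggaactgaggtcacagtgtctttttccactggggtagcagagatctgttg
Blk intron 6, dKO only, chr14:64000774-64000974 (- strand): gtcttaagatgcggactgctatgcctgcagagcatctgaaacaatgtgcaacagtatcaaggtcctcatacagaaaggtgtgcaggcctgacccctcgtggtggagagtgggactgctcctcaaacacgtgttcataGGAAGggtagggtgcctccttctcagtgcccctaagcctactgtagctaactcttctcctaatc
The Pou2af1 run held none of these words. The Pax5 run from the WT list held an Ets and a Runx word, and the one from the dKO list held 2 Ets words. The run in intron 10 of Blk held 2 Ets words, a Runx word and an E-box, the E-box lying 37 bp from the dKO summit.

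The sorted cells were checked by the promoters of lineage markers, counting a gene where a summit fell within 1 kb of one of its TSSs. ChrAcc sites are peaks that passed 3 limits of the study, namely 4 for the lowest fold enrichment, 1e-05 for p and 0.05 for q, and fold enrichment compares the fragments over a summit with the background that the pool shows around it. Of 14 T cell markers, 12 had a promoter site in both lists, Cd3d had one in WT only and Cd2 in dKO only. None of 9 B cell markers, 6 of which are among the genes studied here, and none of 4 NK cell markers had one, and of 5 myeloid markers Itgam had one, in WT only. This check is coarse, as a promoter without a site does not show a silent gene. Of 143 genes that the study lists as enriched in T cells, 45, or 31.5%, had no promoter site in either list. Eomes, among the NK cell markers, is also expressed in CD8+ T cells according to the study. The WT list rested on 83923734 fragments and the dKO list on 62242963, and they held 28472 and 24363 ChrAcc sites. The sparsest ChrAcc site had 21 fragments over its summit in WT and 16 in dKO. These numbers are not calling limits, because the fold enrichment also depends on the local background. A WT peak upstream of Blnk, for example, had 23 fragments and fell short at fold enrichment 2.96. A region absent from a list may thus hold fewer fragments than the sparsest site, or more where the background is high. It is not shown to be closed.

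Sites of the 2 lists were matched where they overlapped by at least 1 bp. Because a deeper pool changes fold enrichment, each site was given the percentile of its fold enrichment within its own list, with 0 where a list had no site. Of the 55 peaks, 52 met the ChrAcc criteria, 28 in WT and 24 in dKO. The 3 that did not were WT peaks of fold enrichment 3.52 past Cd79a, 3.90 past Cd22 at the promoter of Ffar2, and 2.96 upstream of Blnk, and no dKO peak overlapped them.

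The 52 sites merged into 32 regions, of which 20 were shared, 8 were found in WT only and 4 in dKO only. WT-only sites were 8 of 28 WT sites, or 28.6% (95% Wilson interval 15.3% to 47.1%, counting error only), beside 27.6% of all WT sites. The dKO-only sites were 4 of 24, or 16.7% (6.68% to 35.9%), beside 14.4% of all dKO sites. The overall share of list-specific sites at these loci was thus close to that of the whole lists. None of the 12 list-specific sites overlapped a deposited peak below the criteria in the other list, which 3.91% of all WT-only and 14.6% of all dKO-only sites did. The median percentile was 55.2 among the WT sites and 55.0 among the dKO sites.

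The number of shared regions differed with their place. All 8 regions at the promoters of neighbouring genes were shared, as were 5 of 6 inside the bodies of neighbouring genes. In the intergenic flanks 5 of 10 regions were shared and the other 5 were found in WT only. Of the 8 regions inside a listed gene or at its promoter, 2 were shared, 3 were in WT only and 3 in dKO only. Within the bodies of the listed genes, 2 of 4 WT sites and 3 of 5 dKO sites were list-specific, beside 37.8% and 21.2% of the sites in all protein-coding gene bodies outside promoters. In the intergenic flanks they were 5 of 10 and 0 of 5, beside 32.4% and 21.2% of all intergenic sites. At promoters over the whole lists they were 15.2% of WT and 4.23% of dKO sites. With so few sites, these shares are descriptions and were not tested. The maps of the 9 loci show this arrangement, with paired symbols over the neighbouring genes and mostly single ones over the listed genes.

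**Figure D1:**
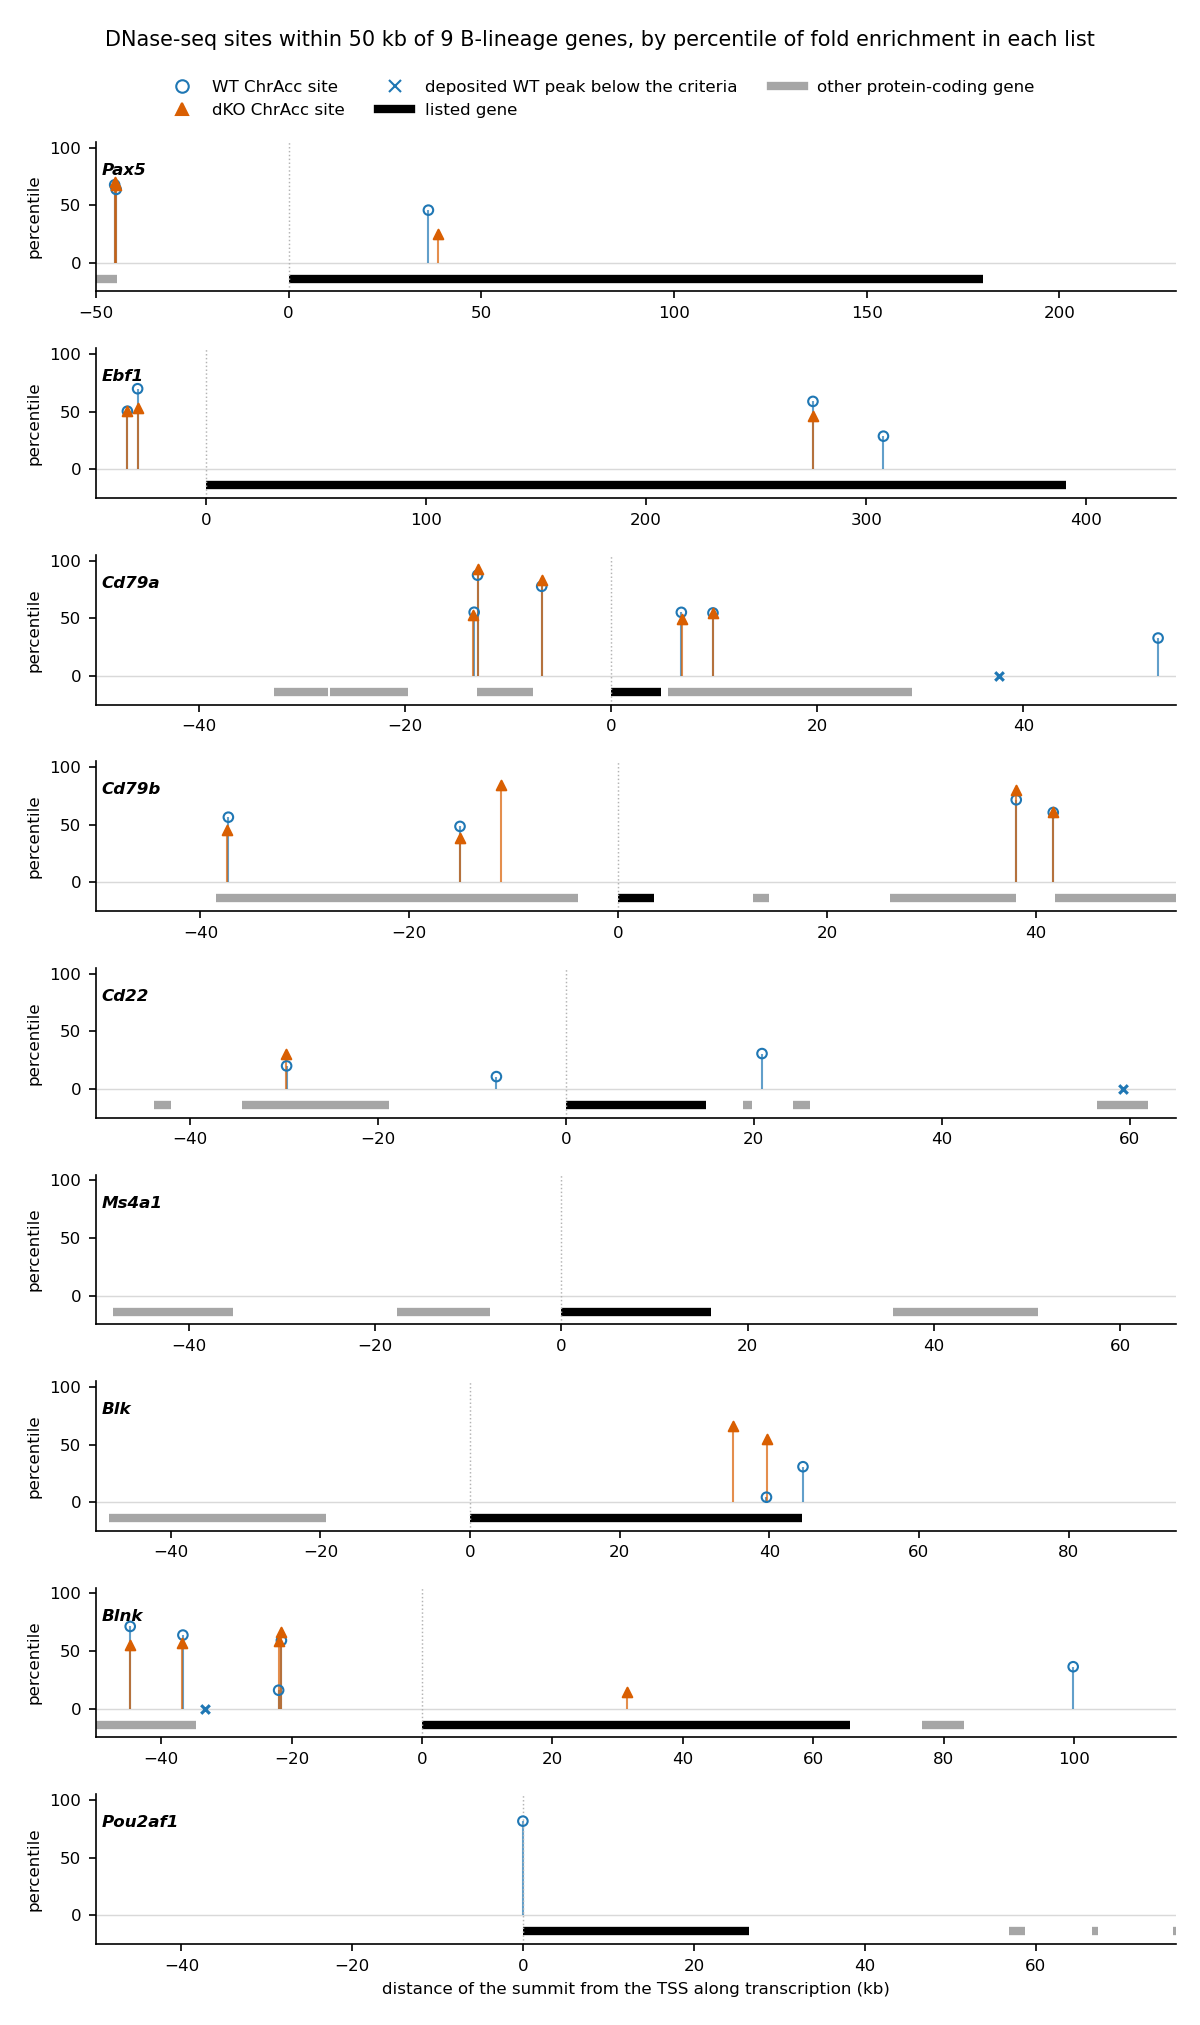
Each panel shows 1 locus with the distance of a summit from the TSS along transcription (kb) on the horizontal axis and the percentile of fold enrichment within its own list on the vertical axis. Open circles are WT ChrAcc sites, filled triangles dKO ChrAcc sites, crosses the 3 WT peaks below the criteria, black bars the listed genes and grey bars other protein-coding genes; Ms4a1 has no symbol, and at Pou2af1 the 1 symbol is a WT site at the TSS.

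Promoters of the listed genes were nearly all without a site. Only 1 of the 9 had a promoter site in WT, beside 44.1% of 22372 protein-coding genes, and 0 of 9 had one in dKO, beside 41.0%. Within the gene body or at the promoter, 4 of the 9 genes had a site in WT, beside 51.2% of all protein-coding genes, and 4 had one in dKO, beside 47.5%. Pax5, Ebf1, Blk, Blnk and Pou2af1 had one in at least 1 list, while Cd79a, Cd79b, Cd22 and Ms4a1 had none in either.

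Among the transcription factors, Pax5 spans 180 kb on chromosome 4 (chr4:44544017-44724318, minus strand), and its body held 2 sites, both in intron 5 and 2.49 kb apart. The site closer to the TSS, 36.3 kb into the gene (chr4:44687876-44688119), was found in WT only, at percentile 45.6. It had 43 fragments over the summit, or 0.512 per 1000000 fragments of the pool, and this level would give 31.9 at the dKO depth, above the 16 of the sparsest dKO site. The other, 38.8 kb into the gene (chr4:44685526-44685634), was found in dKO only. It ranked at percentile 25.3 with 25 fragments, or 0.402 per 1000000, which would give 33.7 at the WT depth. Intron 5 of Pax5 thus carried 1 site in each pool at different positions. The other 2 sites of the locus lay at the promoter of Zcchc7, about 45 kb upstream, and were shared, at percentiles 63.6 in WT and 67.8 in dKO for one and 67.6 and 69.7 for the other.

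Ebf1, which acts with Pax5 in B cell specification, is the longest of the 9 genes (chr11:44430819-44821593, plus strand, 391 kb). Its intron 8 held a shared site 276 kb from the TSS (chr11:44706506-44706680). Its percentile was 58.9 in WT, with 50 fragments, and 45.9 in dKO, with 33. Scaled to depth, the dKO level was 0.890 times the WT level (95% interval 0.555 to 1.41, counting error only), close to the median of 0.912 over all 20626 shared sites. A second site, in intron 10 (chr11:44738569-44738695), was found in WT only at percentile 28.7 with 33 fragments, 32036 bp beyond the first. Upstream of the gene lay a pair of shared intergenic sites. The one 35.7 kb upstream ranked at 50.4 in WT and 50.6 in dKO, and the one 31.1 kb upstream at 69.9 and 53.0.

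The 31.1 kb upstream site of Ebf1 held the only Tcf/Lef core among the 52 sites, 54 bp from the WT summit. That is 1 of 28 WT and 1 of 24 dKO sites, where 3.81% of all WT and 2.42% of all dKO sites held the word. Its depth-scaled level in dKO was 0.837 times that in WT (0.536 to 1.29), an interval that includes 1. None of the sites found in 1 list only, the Pou2af1 promoter included, had this exact core within 100 bp of its summit. An exact word is a narrower measure than the scored motif and the Tcf1 ChIP-seq of the study, neither of which was read here. The study reports Tcf1 peaks at most sites more open in WT, including every site of the group that holds its Pax5 intron site. The missing word therefore does not show that Tcf1 was absent.

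Pou2af1, also called OBF-1, had the single promoter site of the 9 genes (chr9:51021582-51022307, in a gene at chr9:51021795-51048184, plus strand). It was found in WT only. The summit lay 42 bp upstream of the TSS and the peak, 726 bp wide and wider than 99.5% of WT sites, covered the TSS. It ranked at percentile 81.7 of the WT list with 114 fragments, or 1.36 per 1000000. At the dKO depth this level would give 84.5 fragments, against 16 at the sparsest dKO site, yet the dKO list held no peak there, nor anywhere else within 50 kb of the gene. The local background at this site was 1.79 times the genome background of the WT pool.

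The receptor chains had no site of their own in either pool. Cd79a (chr7:25682400-25687216, plus strand) is a gene of 4.82 kb between Rps19, which encodes a ribosomal protein, and Arhgef1. The highest-ranking site of all 9 loci was at the Rps19 promoter, at percentile 87.4 in WT with 146 fragments and 92.6 in dKO with 102. Its neighbour at the same promoter ranked at 55.2 and 52.6. Both sites at annotated starts of Arhgef1 were shared too, at 55.1 and 49.4 for one and 54.6 and 54.5 for the other. An intergenic site 6.75 kb upstream of Cd79a ranked at 77.7 and 83.2. So 5 shared sites flanked a gene body with none, and the 1 list-specific site of the locus was a WT site 48.3 kb past the 3′ end, at percentile 32.8 with 35 fragments.

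Cd79b (chr11:106172655-106176076, minus strand), of 3.42 kb, likewise had a bare body and promoter. In its upstream flank, inside the sodium channel gene Scn4a, lay the dKO-only site of highest rank at the 9 loci. It stood at percentile 84.7 of the dKO list with 55 fragments, or 0.884 per 1000000. The same level would give 74.2 fragments at the WT depth, and the WT list held no peak there. Farther upstream, at 15.1 kb and also within Scn4a, a shared site ranked at 48.6 in WT and 38.2 in dKO, and another, at 37.3 kb, ranked at 56.6 and 45.9. The 2 sites past the 3′ end, at the promoters of Smarcd2 and Tcam1, were shared and ranked at 60.7 and 60.9, and at 71.7 and 80.6.

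Of the surface proteins, Cd22 encodes a sialic acid-binding inhibitory receptor (chr7:31650421-31665361, minus strand). Its body had no site, and the ranks around it were low. The site inside Mag, another sialic acid-binding lectin gene, was shared, with 29 fragments in WT and 27 in dKO, the latter at percentile 30.6. The other 2 sites were found in WT only, 1 at 7.39 kb upstream with percentile 10.7 and 25 fragments, and 1 at 5.94 kb past the 3′ end with percentile 30.7 and 34 fragments. Their levels would give 18.5 and 25.2 fragments at the dKO depth, where the sparsest ChrAcc site had 16 and the median site 43. Ms4a1, which encodes the B cell surface protein CD20 (chr19:11324654-11340669, minus strand), had 0 peaks of either list in its window of 116 kb. Among all protein-coding genes, 26.2% had no WT site and 28.0% no dKO site in a window built the same way, and the median gene had 3 and 2.

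Blk, a Src-family kinase of the B cell receptor (chr14:63991674-64036024, minus strand), had 2 sites in its body in dKO and 1 in WT. Near the 3′ end of the gene, intron 10 held a shared site 39.6 kb from the TSS (chr14:63996215-63996520). In WT it had 25 fragments over the summit and percentile 4.21, and in dKO 55 fragments and percentile 54.7. Scaled to depth, the dKO level was 2.97 times the WT level (1.82 to 4.97), where 90% of shared sites lay between 0.607 and 1.47. The peak was also wider, 306 bp in dKO against 119 bp in WT. In intron 6, 4.54 kb from the dKO summit in intron 10, a second site (chr14:64000831-64000932) was found in dKO only, at percentile 65.8 with 58 fragments, or 0.932 per 1000000, which would give 78.2 at the WT depth. The local background at the intron 10 site was 1.14 times the genome background in WT and 1.63 times in dKO, and at the intron 6 site it was 1.48 times in dKO. A WT-only site lay 143 bp past the 3′ end (chr14:63991477-63991577) at percentile 30.7 with 34 fragments.

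Blnk, the adaptor that links the kinase Syk to downstream signalling (chr19:41003417-41069025, minus strand), had 1 site in its body. It lay in intron 4 (chr19:41037564-41037751) and was found in dKO only, at percentile 14.1 with 21 fragments, the lowest rank of any dKO site at the 9 loci. The upstream flank holds Dntt, which encodes terminal deoxynucleotidyl transferase, the enzyme that adds bases at antigen receptor joints, and sites inside it were shared, at 63.9 in WT and 56.7 in dKO and at 71.4 and 55.3. Between the genes, 22.0 kb upstream of Blnk and 12.7 kb from the Dntt TSS, a shared site (chr19:41090894-41091076) ranked at 16.0 in WT with 32 fragments and at 58.8 in dKO with 46. The depth-scaled dKO level was 1.94 times that of WT (1.21 to 3.14). The adjacent site, 21.6 kb upstream, ranked at 59.2 and 66.2, with a ratio of 1.12 (0.751 to 1.66). A WT-only site at percentile 36.4 lay 34.2 kb past the 3′ end of Blnk.

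**Figure D2:**
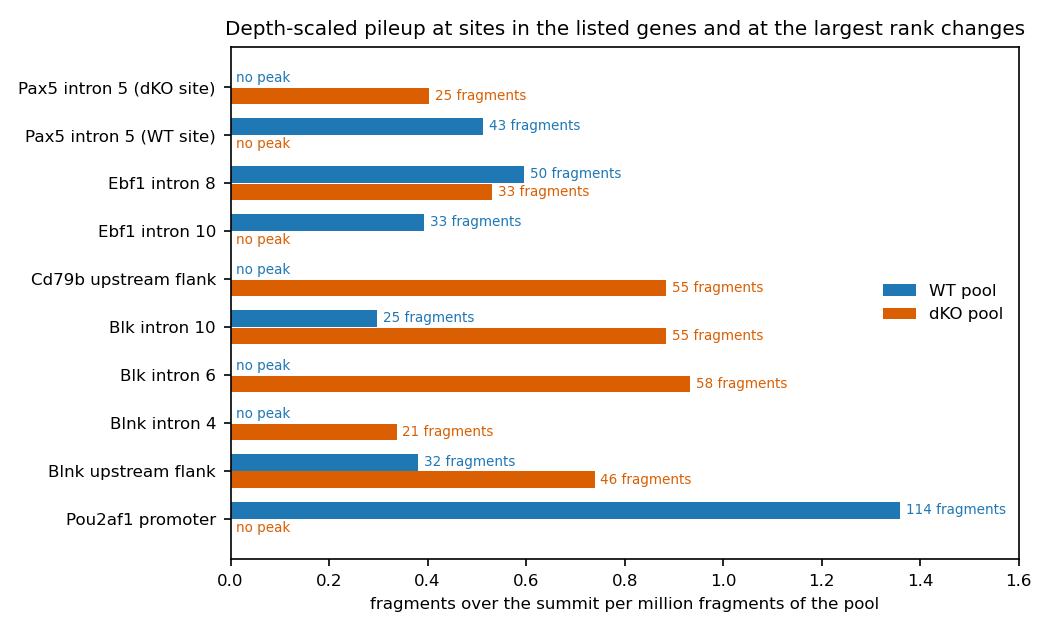
Horizontal bars show the fragments over the summit per 1000000 fragments of the pool, blue for WT and orange for dKO, at the 8 sites inside or at the promoter of a listed gene and at the 2 flank sites whose percentile differed by at least 40 points. Raw fragment numbers stand beside the bars and "no peak" marks a list without one; the Pou2af1 promoter is at 1.36 in WT, and the intron 10 site of Blk is at 0.298 in WT and 0.884 in dKO.

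Over the 20 shared sites, most stood at like ranks in the 2 pools. The median absolute difference was 7.1 percentile points, beside 9.39 over all shared sites. Only the Blk intron 10 site and the site between Blnk and Dntt ranked at least 20 points higher in dKO, 2 of 20 beside 7.03% of all shared sites, and 0 of 20 ranked at least 20 points higher in WT, beside 13.6%. The depth-scaled ratio of dKO to WT had a median of 0.899 and ranged from 0.757 to 2.97. Its interval lay above 1 at those 2 sites, beside 4.47% of all shared sites, and below 1 at 0 of 20, beside 11.1%, and it included 1 at the other 18. The direction of the rank counts depended on the peaks admitted. With a fold enrichment of at least 8, which neither WT peak of those 2 sites reached, 0 shared sites ranked at least 20 points higher in dKO and 3 in WT, and with q under 1e-10 the counts were 1 and 2. The plot of WT against dKO percentiles shows neighbouring promoters along the diagonal and the sites of the listed genes mostly on or near an axis.

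**Figure D3:**
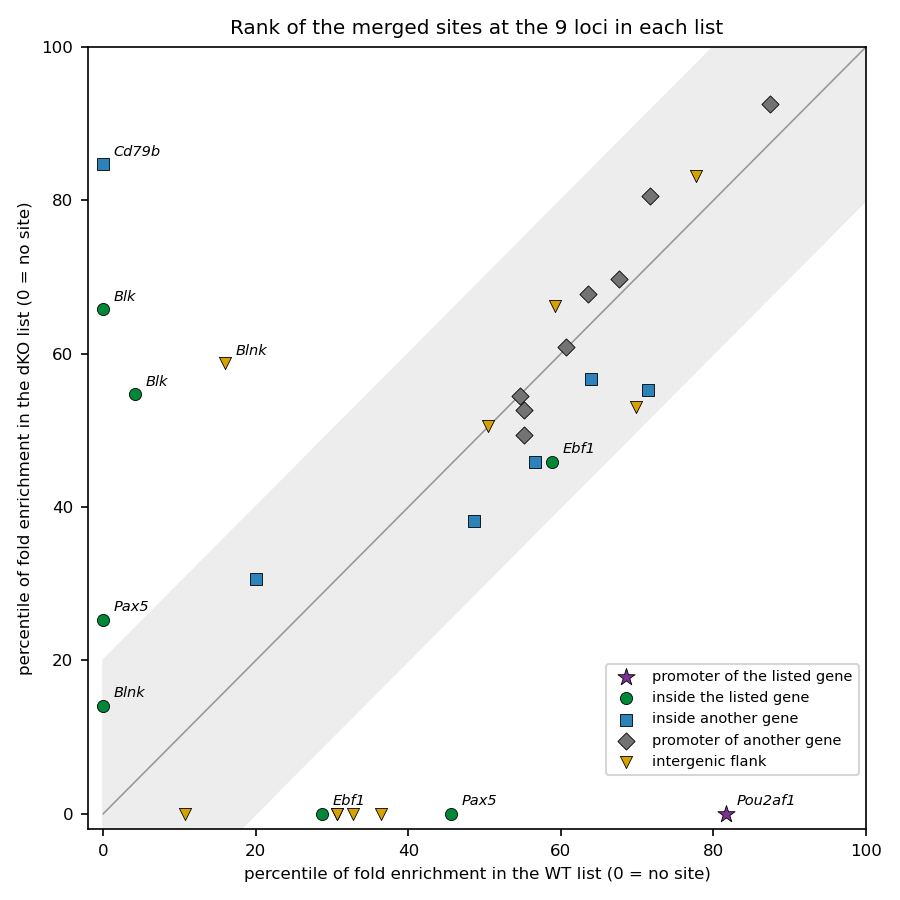
Each symbol is 1 of the 32 merged regions, with its percentile of fold enrichment in the WT list on the horizontal and in the dKO list on the vertical axis, 0 meaning no site, and its shape giving its place. The grey band marks differences under 20 points; the 8 promoters of other genes lie inside it, while Pou2af1 sits on the horizontal axis at 81.7 and the Cd79b flank site on the vertical axis at 84.7.

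The DNA words under the sites of these loci occurred about as often as under other sites. Ets words were within 100 bp of the summit at 18 of 28 WT sites and 15 of 24 dKO sites, beside 63.6% and 63.8% of all sites. Runx words were at 7 and 4 sites, beside 21.8% and 23.2%, and E-boxes at 3 and 4, beside 12.6% and 12.2%. The octamer, the word on which Pou2af1 is recruited in B cells, was at 0 sites of either list, beside 1.03% and 1.07%. The Ebf word was at 1 site in each list, beside 7.59% and 7.37%. With numbers this small, none of these counts separates the loci from the rest of the lists.

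The promoters of 38 other genes with roles in B cells, not all of them restricted to B cells, were read in the same way. Of these, 7, or 18.4%, had a promoter site in both lists, beside 40.3% of all protein-coding genes. They were Tcf3, Ikzf1, Irf8, Pou2f2, Foxo1, Tnfrsf13c and H2-Aa, and the first 5 encode transcription factors. Of these 7, only Tnfrsf13c is also among the matched B cell lineage-enriched genes of the study, so their sites are not a sign of B-lineage accessibility. The genes like Pou2af1, with a promoter site in WT only, were 3 of the 38, beside 3.81% of all protein-coding genes, namely Plcg2, a phospholipase of receptor signalling, at percentile 11.6, Ikzf3, an Ikaros-family factor, at 2.33, and Irf4, a factor of activated lymphocytes, at 9.98. All 3 ranked far below the Pou2af1 promoter. In the lists as deposited, without the criteria, 2 of the 38 genes had a promoter peak in WT only. Sfpi1, which encodes the factor PU.1, was the 1 gene with one in dKO only, beside 0.702%, and ranked at 3.55. The other 27, or 71.1%, had none, beside 55.2% of all protein-coding genes, and neither did 8 of the 9 listed genes. The study's lists of B cell and pan-T cell lineage-enriched genes, chosen on other data, were matched to the annotation for 243 and 143 genes, and 18 and 10 genes could not be matched and were left out. Among the matched B cell genes, which include all listed genes except Cd22, 54.3% had a promoter site in WT and 47.3% in dKO. Among the matched pan-T cell genes the shares were 65.7% and 56.6%, and among all protein-coding genes 44.1% and 41.0%.

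**Figure D4:**
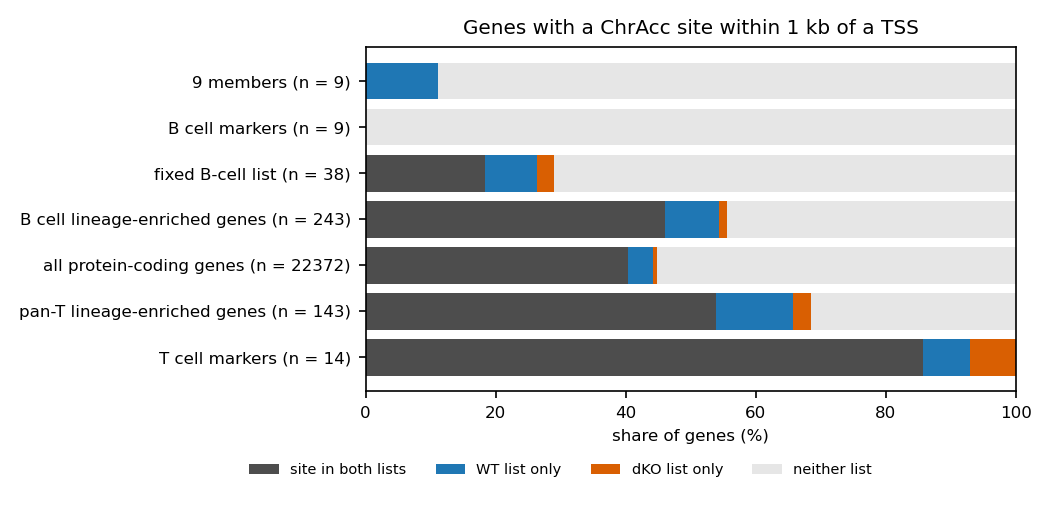
Stacked bars give the share of genes (%) of each list with a ChrAcc site within 1 kb of a TSS in both lists, in WT only, in dKO only or in neither. The 9 listed genes are 88.9% without a site, the 243 matched B cell lineage-enriched genes 44.4%, all protein-coding genes 55.2%, the 143 matched pan-T cell genes 31.5% and the 14 T cell markers 0%.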

How the data were processed

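DNase-seq libraries of naïve CD8+ T cells from 3 WT and 2 dKO replicates were aligned by the authors to mm9 with Bowtie2 version 2.2.5, keeping uniquely mapped reads. The authors pooled replicates and called peaks with MACS2 version 2.1.1.20160309 without a control library at p 1e-05. The deposited pileup is a signal, the number of fragments over the summit without scaling. The deposited fold enrichment is a ratio of pileup to local background, each plus 1, and the deposited −log10 p and −log10 q are MACS2 tests of the summit within its pool. Per the file headers, each call listed 2 alignment files and kept exactly 50% of the fragments, 83923734 for WT and 62242963 for dKO, so the listed number is 2 times the kept one, which sets the depth used here.

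Peaks were placed with the mm9 gencode annotation, in which Syk is named Sykb and Fcmr is named Faim3. A promoter is 1 kb either side of any TSS of a gene, and introns are numbered in the first-named transcript of each gene. Ratios of depth-scaled pileup carry an exact binomial 95% interval for counting error. Levels "at the other depth" multiply a pileup by the ratio of kept fragments. Sequences were read from the mm9 genome with pysam 0.24.0. Python 3.11.15, numpy 2.4.6, pandas 2.3.3, scipy 1.17.1 and matplotlib 3.10.9 were used. On simulated data, the overlap step found 1500 of 1500 planted overlaps and the motif step 200 of 200 planted words.

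The genes, gene lists and alternatives were chosen with earlier results of these data known. Individually named were sites within 1 kb of a TSS of a listed gene, sites inside a listed gene that were in 1 list only or moved by at least 20 percentile points, the highest-ranking site of each gene, the 3 highest WT-only and dKO-only flank sites, and genes of the B cell list with a promoter site in 1 list. Remaining sites were named after their values were seen. Alternatives were a fold enrichment of at least 8, the lists as deposited, q under 1e-10, the 20000 peaks of lowest p, overlap of at least 50%, a gap of up to 100 bp, flanks of 0 and 10 kb, promoters of 2 kb or covering the TSS, ranks by −log10 p or pileup, and a motif window of 50 bp. Read counts per replicate were not analysed here, and the sequence of 1 flank site is not reported here.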

Additional observations from a re-analysis of the deposited data

How the results depend on the processing

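No paired analysis was possible because replicates were pooled before peaks were called. Leaving out a replicate was not run for the same reason. Of the counts recomputed under an alternative, 73 stayed within 1.5 times their value and 33 moved, and the cause was not tested beyond fewer peaks or smaller windows entering. With a fold enrichment of at least 8, 18 WT sites remained, 2 of them in WT only, and 20 dKO sites, 4 of them in dKO only. At that limit 0 shared sites ranked at least 20 points higher in dKO and 3 higher in WT. There 3 genes of the B cell list had a WT and 2 a dKO promoter site. With q under 1e-10, 1 shared site ranked higher in dKO and 2 in WT, and 0 genes of the B cell list had a promoter site in dKO only. Among the 20000 peaks of lowest p, 2 WT sites lacked a dKO site and 6 dKO sites lacked a WT site. The main setting had 8 and 4, so the larger count changed sides. In those peaks 0 shared sites ranked higher in dKO, and 6 genes of the B cell list had a WT promoter site, 1 of them in WT only. In the lists as deposited, 2 WT peaks held a Tcf/Lef core, the second past Cd79a at fold enrichment 3.52. Without flanks, 4 WT and 5 dKO sites were left, 2 shared, 2 in WT only and 3 in dKO only. With 10 kb flanks, 11 WT and 8 dKO sites were left, 5 of them shared. In both cases 1 shared site ranked higher in dKO and 0 sites held a Tcf/Lef core in WT or in dKO. Within 50 bp of the summit, 0 WT and 0 dKO sites held it. Where a site had to cover the TSS, 4 genes of the B cell list had a WT promoter site, 3 a dKO one, 1 in WT only and 0 in dKO only. Ranked by −log10 p or pileup, the intron 10 site of Blk stood 58.4 and 62.6 points higher in dKO, and the site between Blnk and Dntt 42.5 and 40.8 points.

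Whether the difference in depth accounts for sites found in 1 list only was not tested. The 8 WT-only sites would give between 18.5 and 84.5 fragments at the dKO depth, where the sparsest ChrAcc site has 16. The 4 dKO-only sites would give between 28.3 and 78.2 at the WT depth, where the sparsest has 21. The sparsest site is not a calling limit, since a region with a high local background needs more fragments to be called. A region absent from a list is still not shown to be closed.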

Other observations

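Words of the CTCF core, AGGGGGC or AGGTGGC on either strand, were searched after the data had been seen. CTCF is the insulator protein found at many loop anchors. A word lay within 100 bp of the summit at 7 of 28 WT sites and 5 of 24 dKO sites of the 9 loci, beside 5115 of 28472 and 4258 of 24363 sites in all. GC content within this window had a median of 53.7% at the WT sites of the loci and 53.0% at the dKO sites, beside 53.2% in both lists.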
